A study of Mus musculus with 11 samples.

Results

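Liver RNA of 5-day-old mice (P5) was compared with that of mouse fetuses late in gestation (E18.5), the stages on either side of birth. The comparison rests on 5 of the 11 normal liver arrays of the study, the 3 E18.5 arrays (replicates 1 to 3) and the 2 P5 arrays (replicates 2 and 3), which were chosen by stage alone. All 16560 named genes that could be measured were tested. The study set the normal course of liver development, sampled also at E14.5 (3 arrays) and in adults at P56 (3 arrays), beside mouse and human liver tumors, which were not analysed here. Each array was hybridised with 2 colours, the liver sample in Cy5 and, in Cy3, a reference that all arrays shared, commercial RNA of normal adult mouse liver, so that a value of 0 on the log2 (Cy5/Cy3) scale means the level of that reference.

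No array of either stage carried a labelled mutation, transgene or treatment. The E18.5 samples were labelled as liver with the cell type immature hepatocytes and the P5 samples as liver with the cell type hepatocytes. The embryonic ages are 14 and 18 days in the labels and E14.5 and E18.5 in the study's text. The extraction protocol speaks both of whole livers and of cells isolated from fetal livers, so whether an E18.5 array holds whole liver or enriched cells is not settled, and a difference in preparation cannot be told apart from the difference in stage. The strain C57BL/6 is stated for the isolated fetal cells only. The labels describe the arrays of a stage as biological replicates without saying how many animals gave each RNA.

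Between 24415 and 25718 of the 43379 spots of an E18.5 array, and 25130 and 24921 of those of the P5 arrays, were well above background in Cy5. The hepatocyte markers Alb (listed as Alb1), Ttr, Apoa1, Cps1 and Hnf4a were above background on all 5 arrays. Blood cell markers were also present at both stages, since 37 of 38 erythroid genes were above background on all E18.5 arrays and 36 on both P5 arrays. The arrays were scanned in 4 runs that never held both stages (E18.5 replicate 1 with the E14.5 arrays, E18.5 replicates 2 and 3, P5 replicate 2 alone, and P5 replicate 3 with the P56 arrays), so scan and stage cannot be told apart within a run. Across the 16560 genes, which are not independent replicates, the 2 P5 arrays correlated with Pearson's r = 0.901, P5 replicate 2 correlated with the E18.5 arrays at 0.895 to 0.907 and P5 replicate 3 at 0.825 to 0.837. With the P56 arrays, P5 replicate 2 correlated at 0.248 to 0.266 and P5 replicate 3, scanned with them, at 0.342 to 0.429. The female marker Xist was high on 1 of 3 E18.5 arrays and on both P5 arrays, with values of 4.45, 0.02 and -0.02 at E18.5 and 4.13 and 2.67 at P5. The part of sex in the results below was not tested.

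Before birth the liver is the main site of blood formation and its hepatocytes live on glucose and other nutrients that arrive through the placenta. After birth the glucose supply stops between feeds and milk brings fat and cholesterol, and the hepatocyte is known to start gluconeogenesis, fatty acid oxidation, ketone body formation and urea synthesis, while blood formation moves to the bone marrow. Most of these programs are set by transcription factors that respond to hormones and nutrients, among them the SREBP factors for sterol and fatty acid synthesis and PPAR-alpha for fatty acid oxidation.

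With limma and Benjamini-Hochberg adjustment over the 16560 genes at a threshold of 0.05, 1219 genes (7.36%) were higher at P5 and 1063 (6.42%) were lower, 2282 (13.8%) in all, where 4817 genes had an unadjusted p under 0.05. Of the called genes 53.4% were higher at P5, and 72.9% in the authors' own table of log ratios, in which 213 genes were called higher and 79 lower. The 2 P5 arrays lay outside the range of the 3 E18.5 arrays on the same side for 2277 of the 2282 called genes, against 43.9% of all genes tested. The genes were called on these same arrays, so the share among them is largely set by the selection. The exceptions were Cth, Ephx2 and Ldhb, each with a missing value on 1 P5 array, and Fibp and Neurog2, whose stages overlapped (named after their values were seen). Without E18.5 replicate 2 or 3 the adjusted p of Cth was 0.0841 and 0.082, that of Fibp 0.122 and 0.125 and that of Neurog2 0.137 and 0.151, and without P5 replicate 3 those of Fibp and Neurog2 were 0.324 and 0.436. Among the called genes 448 differed by at least 1 on the log2 scale, 287 of them higher and 161 lower at P5. P5 replicate 3 lay farther than P5 replicate 2 from the E18.5 mean for 1648 called genes (72.2%). The number of calls turned on that array, with 583 genes higher and 345 lower without it and 1842 higher and 1904 lower when it stood alone for P5. With 1 P5 array left, the error comes wholly from the other stages, and the lone array is assumed to vary as they do. Scale normalization between arrays, which multiplied the log ratios of P5 replicate 3 by 2.83 and those of the other P5 and E18.5 arrays by 0.82 to 0.879, kept 323 of the calls and turned the sign of 458. Values are those of each gene's brightest probe, and another probe's difference is given beside a called gene where it differed by more than 1.5 times. In the following, every gene given as higher or lower passed the test with both P5 arrays beyond all 3 E18.5 arrays on the same side, unless stated otherwise. The counts of each list stand beside 7.36% of all genes higher, 6.42% lower and 13.8% in either direction.

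**Figure D1:**
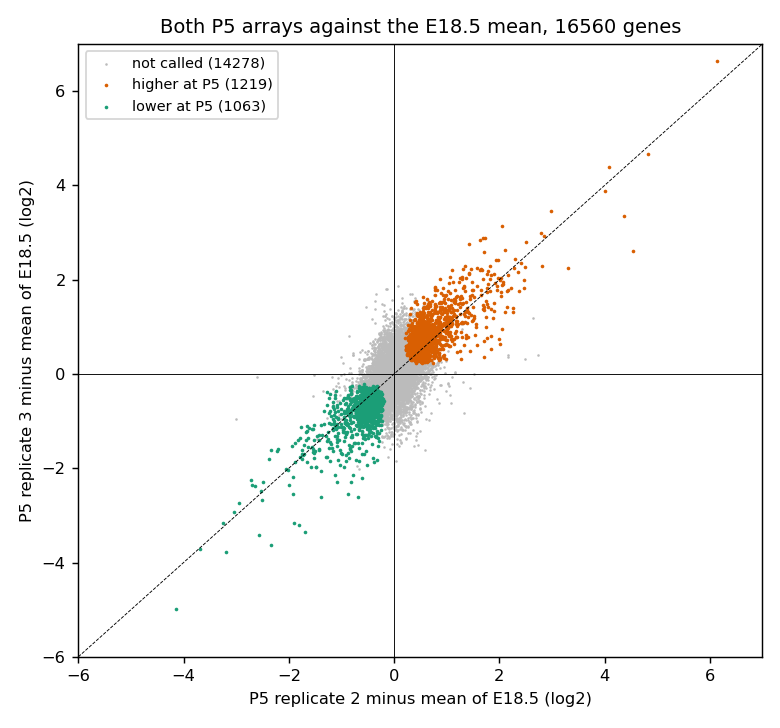
Each point is a gene, with its log2 difference from the mean of the 3 E18.5 arrays on P5 replicate 2 (x axis) and on P5 replicate 3 (y axis). The 1219 genes called higher at P5 (orange) and the 1063 called lower (green) with a value on both P5 arrays lie in the 2 quadrants in which both P5 arrays point the same way, and the dashed line marks equal differences.

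The steepest rises included enzymes of gluconeogenesis, fat and sterol metabolism and amino acid breakdown. Pck1, the cytosolic phosphoenolpyruvate carboxykinase that limits gluconeogenesis, had log2 values of -5.14, -5.07 and -5.11 at E18.5 and -0.28 and -0.44 at P5. The stages were far apart, and Pck1 was 4.75 higher at P5 on the log2 scale (26.9-fold; SE 0.20, adjusted p = 2.85e-07), from well below the adult reference to near it. Sult2a2, a sulfotransferase of steroids and bile acids, had -2.67, -3.39 and -3.26 at E18.5 and 3.03 and 3.53 at P5, a difference of 6.38 with a larger error (SE 1.21, adjusted p = 0.00558). Its P56 arrays, which enter the estimate of the error, were themselves spread (SD 3.15), and another probe of the gene gave 2.30. On P56 replicates 1 to 3 Sult2a2 had -3.309, 1.855 and 2.398, where Xist had -0.056, 4.034 and 5.176. The part of sex in this difference was not tested. Igfbp2, which binds insulin-like growth factors in plasma, had 0.04, -0.07 and 0.07 at E18.5 and 2.80 and 3.01 at P5, a difference of 2.89 (SE 0.16, adjusted p = 1.35e-06). Sult1c2, another sulfotransferase, rose by 3.86 and Akr1c18, a hydroxysteroid dehydrogenase, by 2.77. The fatty acid omega-hydroxylases BC013476 (now Cyp4a31) and Cyp4a10 rose by 3.22 and 2.38 (other probes 1.29, and 1.33 to 2.03), and the cytochrome P450 Cyp3a25 by 2.66. The calcium-binding proteins S100g (calbindin D9k) and Calml4 rose by 2.55 and 2.89, and the secreted ribonucleases Rnase4 and Ang1 (now Ang) by 2.59 and 2.37. Tat, the tyrosine aminotransferase whose appearance after birth is a classic sign of the mature hepatocyte, had -3.01, -2.97 and -2.77 at E18.5 and -0.44 and -0.66 at P5, a difference of 2.37 (SE 0.24, adjusted p = 9.4e-05). Probes of the Cyp4a, Cyp3a and Ang families may cross-hybridise with close paralogs. An unnamed transcript on chromosome 7, ENSMUST00000098809, rose by 3.94, also with a larger error (SE 0.746, adjusted p = 0.00549). On P56 replicates 1 to 3 it had -1.775, 1.376 and 1.747, a spread like that of Sult2a2. The part of sex in its rise was not tested either.

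Reg1, a secreted protein best known from the exocrine pancreas, was the lead gene on which the P5 arrays differed most. It had -3.71, -3.91 and -4.30 at E18.5 and 0.57 and -1.36 at P5, so both P5 arrays were above the E18.5 arrays but 1.94 apart on the log2 scale (difference 3.58, SE 0.46, adjusted p = 0.000471). The list of pancreatic acinar genes showed the same gap. Its 14 genes had a median difference of 1.42 on P5 replicate 2 and 0.39 on P5 replicate 3, and 5 were called higher, the largest after Reg1 being 1810049H19Rik (now Try5; 1.33), Prss2 (1.20) and Rnase1 (1.18). The summed Cy5 level of the list was 5495 to 8042 intensity units on the E18.5 arrays, 19638 on P5 replicate 2 and 7935 on P5 replicate 3. The list's median turned to -0.89 under scale normalization between arrays. Without E18.5 replicate 3, 3 genes of the list were called and 1810049H19Rik missed the threshold (adjusted p = 0.0607), and without P5 replicate 3, 9 were called. The part of pancreatic RNA in single samples was not tested.

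**Figure D2:**
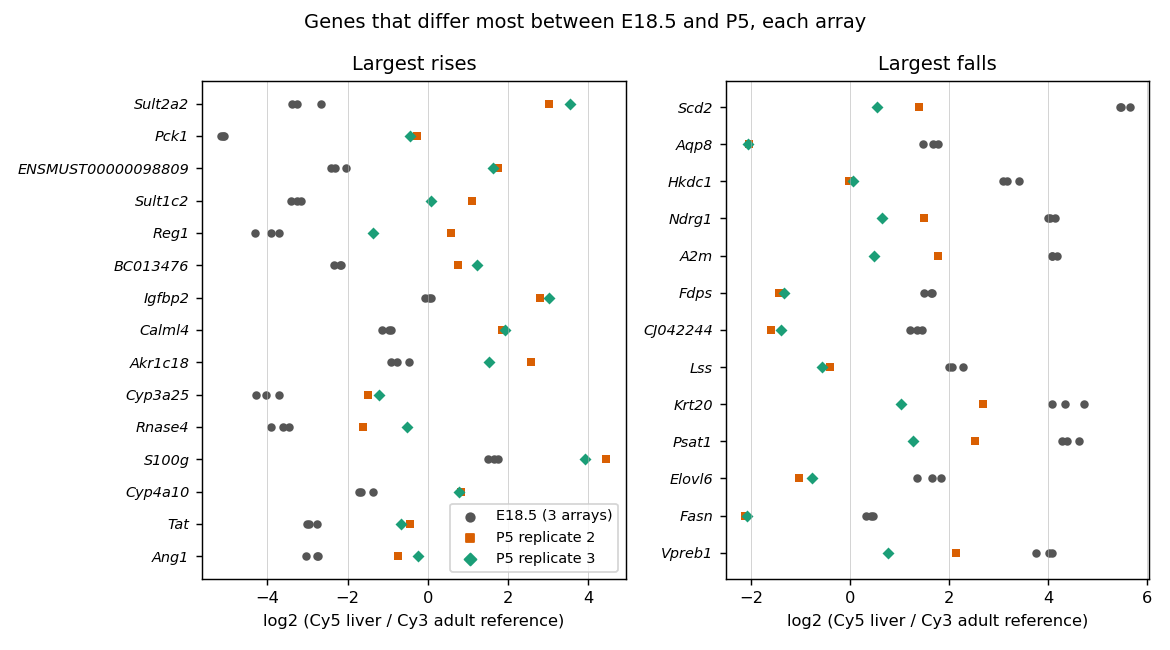
Log2 ratio of liver sample to adult reference on each E18.5 array (grey circles) and each P5 array (orange squares, replicate 2; green diamonds, replicate 3) for the 15 largest rises (left) and 13 of the 15 largest falls (right) among genes measured on all 5 arrays. In every gene shown both P5 arrays lie on the same side of the 3 E18.5 arrays.

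The steepest falls were led by an enzyme of lipid synthesis. Scd2, a stearoyl-CoA desaturase that makes monounsaturated fatty acids in young animals, had log2 values of 5.65, 5.47 and 5.45 at E18.5 and 1.38 and 0.55 at P5, a fall of 4.56 (SE 0.20, adjusted p = 2.85e-07). It stood far above the adult reference at E18.5 and stayed above it on both P5 arrays. Aqp8, a water and hydrogen peroxide channel, had 1.46, 1.68 and 1.78 at E18.5 and -2.06 and -2.07 at P5 and fell by 3.70 (adjusted p = 3.91e-05). Hkdc1, a hexokinase-like protein, fell by 3.21 and Ndrg1, a gene induced by low oxygen, by 2.99. Psat1, an enzyme of serine synthesis, fell by 2.53, the epithelial keratin Krt20 by 2.53 and the protease inhibitor A2m by 2.99. Vpreb1, which forms the surrogate light chain of B cell precursors, fell by 2.51, and an unnamed transcript on chromosome 12, CJ042244, by 2.83. Fdps and Lss of the cholesterol pathway and Elovl6 and Fasn of fatty acid synthesis were also among the 15. The other probe of A2m gave -1.75. In 3 of these rises and falls the adult reference was dim, well above background on 2 of the 5 arrays for S100g and on 3 for A2m and Krt20. With the scanner's processed signals their differences were 1.26, -0.039 and -1.26 (adjusted p = 0.103, 0.948 and 0.0503) and none was called. Their mean Cy5 levels (log2) were 7.78 at E18.5 and 11.1 at P5 for S100g, 13.06 and 7.49 for A2m and 10.93 and 8.36 for Krt20. For Ndrg1, A2m, Krt20, Psat1 and Vpreb1 the fall was steeper on P5 replicate 3, but both arrays lay below all E18.5 arrays.

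Cholesterol synthesis and uptake fell almost as a whole. Of 24 measured genes 21 were lower at P5 and none was higher, where 6.42% of all genes were lower, and the median difference was -1.46 (-1.66 on P5 replicate 2 and -1.29 on P5 replicate 3; 0 over all genes). Fdps, which makes farnesyl diphosphate, had log2 values of 1.49, 1.65 and 1.62 at E18.5 and -1.45 and -1.34 at P5 and fell by 2.98 (SE 0.11, adjusted p = 1.64e-07), the smallest p of all genes tested. Lss, lanosterol synthase, had 2.29, 2.00 and 2.06 at E18.5 and -0.40 and -0.57 at P5 and fell by 2.60 (adjusted p = 1.73e-05). Hmgcs1, an early enzyme of the pathway, had 1.26, 0.89 and 1.06 at E18.5 and -0.69 and -0.74 at P5 and fell by 1.78 (SE 0.29, adjusted p = 0.00218). The stages did not overlap for any of the 3. Other probes gave smaller falls for Fdps (0.98), Lss (1.55 to 1.70) and Hmgcs1 (0.53). Among those not called were Mvk and Hsd17b7, with differences of -0.23 and -0.56 (adjusted p = 0.38 and 0.108; named after their values were seen). The count was 21 without any one of the 5 arrays.

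In the adult the pathway was higher again. Of the 21 genes that fell, 20 were called higher at P56 than at P5, where 20.9% of all genes were higher (45.8% in either direction). The exception, Srebf2, was called lower still at P56 than at P5 (named after its values were seen). Both comparisons use the same P5 arrays. Fdps was 2.31 higher at P56 than at P5 (adjusted p = 3.93e-08) and Hmgcs1 1.83 higher (adjusted p = 0.000322). Lss was 0.75 higher at P56 than at P5 (adjusted p = 0.0107), with an adult mean still below that of E18.5. The fetal and adult levels thus lay on 1 side of the P5 level for Fdps, Hmgcs1 and Lss.

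**Figure D3:**
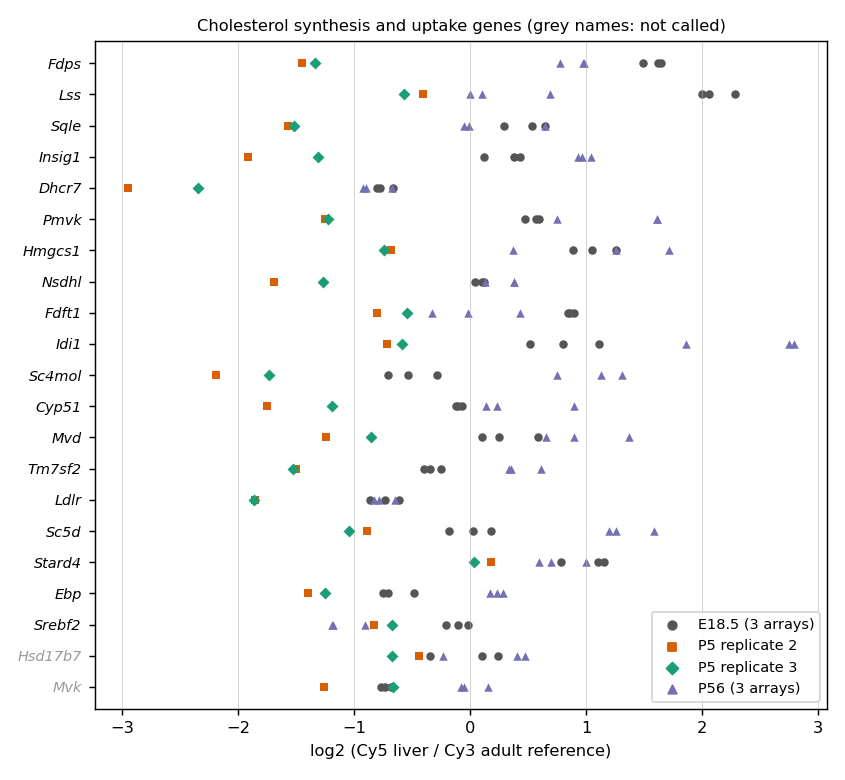
Log2 ratio to the adult reference of 21 of the 24 genes of cholesterol synthesis and uptake on the E18.5 arrays (grey circles), P5 replicate 2 (orange squares), P5 replicate 3 (green diamonds) and the P56 arrays (purple triangles), ordered by the difference between P5 and E18.5. For the genes with black names both P5 arrays lie left of all E18.5 arrays; the grey names (Hsd17b7, Mvk) were not called.

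Since these genes fell together, the 250 bases before their RefSeq gene starts (GRCm38.p6) were searched on both strands for the CCAAT box, the letters CCAAT, and for a sterol regulatory element, TCACNCCAC, motifs of the factors NF-Y and SREBP that are known to act together on sterol genes. The letters CCAAT were in at least 1 window of all 14 fallen genes that have a promoter entry, and of 37.5% of the 27025 genes in the table. They were also in those of 4 of the 6 fallen genes of fatty acid synthesis with an entry (66.7%) and of 8 of the 16 risen genes of fatty acid oxidation (50%). The element TCACNCCAC was in the window of Hmgcs1 alone among the 14, of none of the 6 and of Ehhadh alone among the 16 (6.25%), and of 1.22% of all genes. The 2 motifs did not overlap. A match of letters is a description and not a binding site. The windows of 3 of the 14 genes are shown 5′ to 3′ in the direction of the gene, with matches in capitals. ATTGG is CCAAT on the other strand, and in Hmgcs1 the run TCACCCCAC is the sterol element, with 128 bases between it and the end of the window, while 232, 171 and 40 bases follow the 3 CCAAT matches.
Lss (chr10:76531355-76531604, plus strand): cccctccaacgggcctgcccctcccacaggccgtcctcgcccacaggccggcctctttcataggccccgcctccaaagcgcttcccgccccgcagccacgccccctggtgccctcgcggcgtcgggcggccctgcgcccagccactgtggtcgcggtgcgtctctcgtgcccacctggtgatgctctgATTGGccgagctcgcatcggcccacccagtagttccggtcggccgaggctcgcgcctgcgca
Insig1 (chr5:28071162-28071411, plus strand): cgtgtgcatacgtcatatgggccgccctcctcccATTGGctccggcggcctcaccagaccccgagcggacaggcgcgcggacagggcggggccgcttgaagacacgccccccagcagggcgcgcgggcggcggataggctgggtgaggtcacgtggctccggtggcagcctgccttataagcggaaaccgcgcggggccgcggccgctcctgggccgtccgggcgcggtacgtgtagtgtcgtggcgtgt
Hmgcs1 (chr13:119690101-119690350, plus strand): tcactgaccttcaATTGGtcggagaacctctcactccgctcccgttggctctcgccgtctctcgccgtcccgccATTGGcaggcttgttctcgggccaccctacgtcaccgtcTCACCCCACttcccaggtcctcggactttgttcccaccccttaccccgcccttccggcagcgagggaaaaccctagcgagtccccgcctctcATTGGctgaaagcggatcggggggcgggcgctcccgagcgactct

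Fatty acid synthesis fell in part. Of 20 measured genes 10 were lower at P5 and none higher, with a median of -0.78 (-0.84 and -0.54 on the 2 P5 arrays). Fasn, fatty acid synthase, had log2 values of 0.46, 0.32 and 0.42 at E18.5 and -2.13 and -2.08 at P5, a fall of 2.51 (SE 0.28, adjusted p = 0.0002; another probe -1.39). Elovl6, which lengthens its product, had 1.35, 1.66 and 1.83 at E18.5 and -1.04 and -0.77 at P5 and fell by 2.52 (SE 0.24, adjusted p = 6.32e-05). The stages did not overlap in either gene. Acly, which supplies cytosolic acetyl-CoA, fell by 1.72 (adjusted p = 0.0013), and Scd2 is given above. At P56, 8 of the 10 were higher again than at P5, where 20.9% of all genes were higher. Fasn was higher by 3.56 (adjusted p = 1.63e-06) and Elovl6 by 4.21 (adjusted p = 1.08e-07). Scd2 went the other way, 2.09 lower at P56 than at P5 (adjusted p = 8.21e-06). The count of fallen genes was 8 or 9 without any one array.

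Of 40 measured genes of fatty acid oxidation and ketone body formation 21 were higher at P5, where 7.36% of all genes were, and none was lower, with a median of 0.53 (0.67 and 0.53 on the 2 P5 arrays). Cyp4a14, a fatty acid omega-hydroxylase and a classic target of PPAR-alpha, had log2 values of -0.41, -0.66 and -0.35 at E18.5 and 3.61 and 3.92 at P5. It rose by 4.24 (SE 0.36, adjusted p = 3.09e-05) and was saturated on 1 P5 array, so that its rise may be understated. Fgf21, a fasting hormone of the liver, rose by 1.31 (adjusted p = 0.00287; another probe 0.51), and Ehhadh, a peroxisomal oxidation enzyme, by 1.30 (adjusted p = 0.0007). Cpt1a, the carnitine palmitoyltransferase that admits fatty acids to mitochondria, had -1.69, -1.67 and -1.59 at E18.5 and -0.38 and -0.56 at P5, a rise of 1.18 (SE 0.13, adjusted p = 0.000185). The stages stood apart in both Cyp4a14 and Cpt1a. Of the 21 genes that rose 12 were lower again at P56 than at P5, where 24.9% of all genes were, among them Cyp4a14 (by 3.68, adjusted p = 9.23e-06) and Cpt1a (by 1.12, adjusted p = 3.33e-05). The count of 21 went to 13 without E18.5 replicate 3 and to 14 without P5 replicate 2.

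**Figure D4:**
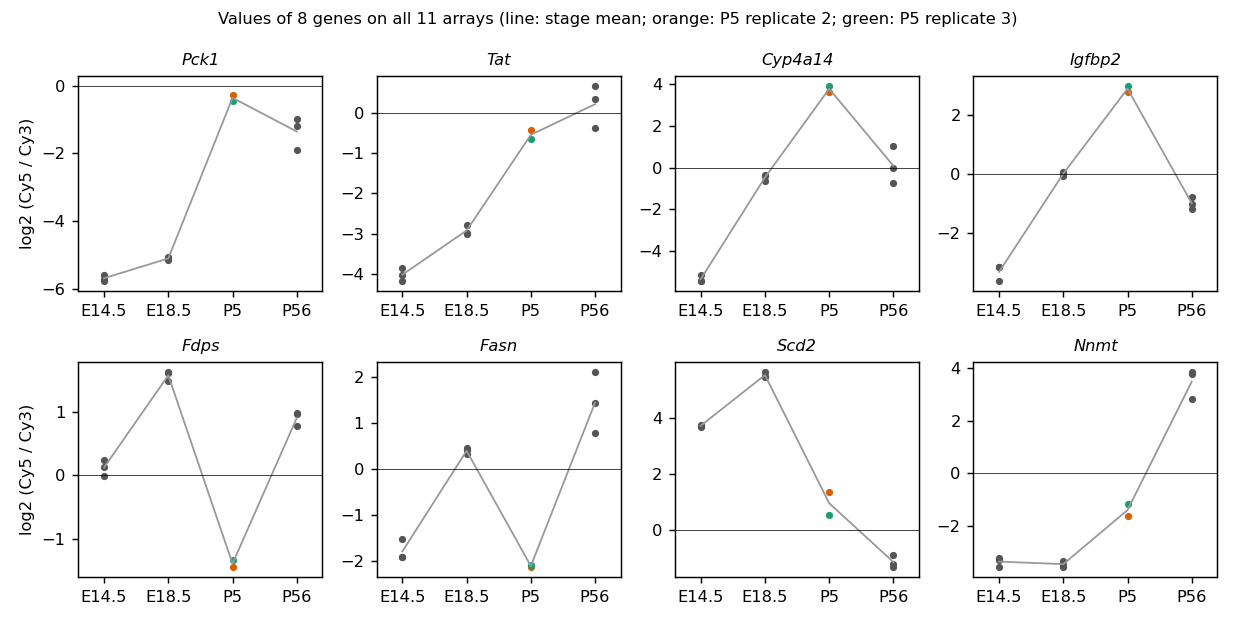
Log2 ratio to the adult reference of 8 genes on all 11 arrays by stage, with the line through the stage means and the P5 arrays in orange (replicate 2) and green (replicate 3). Cyp4a14 and Igfbp2 are highest at P5, Fdps and Fasn are lower at P5 than at E18.5 and at P56, Scd2 falls from E18.5 on, and Pck1 rises between E18.5 and P5 far more than before.

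Genes of gluconeogenesis and glycogen moved in both directions, 4 of 20 higher and 5 lower at P5. Besides Pck1 the higher ones were Ppargc1a (0.97, adjusted p = 0.0105), a coactivator of gluconeogenic genes, Gpd1 (0.81, adjusted p = 0.0109; another probe 0.40), the cytosolic glycerol-3-phosphate dehydrogenase, and Ugp2 (0.72, adjusted p = 0.00284), which makes UDP-glucose. G6pc, the catalytic subunit of glucose-6-phosphatase, had log2 values of -0.24, -0.09 and -0.12 at E18.5 and 1.13 and 0.79 at P5, with both P5 arrays above all E18.5 arrays but a difference of 1.11 that did not pass the test (SE 0.42, adjusted p = 0.102). Its P56 arrays had an SD of 1.06. The lower ones included glycogen genes. Ppp1r3c and Ppp1r3b, which bring protein phosphatase 1 to glycogen, fell by 1.37 and 1.22 (another probe of Ppp1r3c -0.48). Pygl, liver glycogen phosphorylase, had 0.76, 0.86 and 0.90 at E18.5 and -0.43 and -0.59 at P5 and fell by 1.35 (adjusted p = 0.000565; another probe -0.73). Gbe1, the glycogen branching enzyme, had 0.16, 0.24 and 0.32 at E18.5 and -0.97 and -1.21 at P5 and fell by 1.33 (adjusted p = 5.09e-05). Both enzymes were higher again at P56 than at P5, by 1.15 and 2.09 (adjusted p = 0.00026 and 3.61e-07). Without P5 replicate 3, Gpd1 (adjusted p = 0.0645) and Ppp1r3b (0.0572) missed the threshold.

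The window before Pck1 is shown because this enzyme led the rises of the pathway. It holds the letters TTACGTCA, known as the cyclic AMP response element of this gene, in capitals below, with 85 bases between them and the end of the window. These letters are in the windows of 0.525% of the 27025 genes, searched on both strands.
Pck1 (chr2:173152823-173153072, plus strand): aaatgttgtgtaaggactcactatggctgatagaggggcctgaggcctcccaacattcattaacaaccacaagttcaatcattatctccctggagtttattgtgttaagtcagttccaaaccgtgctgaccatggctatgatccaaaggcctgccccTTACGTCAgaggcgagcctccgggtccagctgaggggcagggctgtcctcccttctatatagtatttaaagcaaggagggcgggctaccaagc

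Of 23 genes of glycolysis and sugar transport 7 were lower and 1 higher at P5 (34.8% called, where 13.8% of all genes were), with a median of -0.41 (-0.18 and -0.69 on the 2 P5 arrays). Slc2a1, the glucose transporter GLUT1, had log2 values of 2.46, 2.70 and 2.29 at E18.5 and 0.49 and 0.13 at P5, a fall of 2.18 (SE 0.21, adjusted p = 7.43e-05). Pfkfb3, which raises the activator of phosphofructokinase, fell by 1.52 (adjusted p = 0.0028), the aldolase Aldoc by 1.39 (adjusted p = 8.52e-06) and Pgam1, a phosphoglycerate mutase, by 1.08 (adjusted p = 0.00134). Another probe of Aldoc gave -0.07. Ldhb, a lactate dehydrogenase subunit, was the higher one, by 1.16 (adjusted p = 0.000471), on P5 replicate 2 alone, since it had no value on P5 replicate 3. The count of fallen genes was 4 without P5 replicate 3 and 12 without P5 replicate 2.

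Of 28 genes of amino acid breakdown 18 were higher and 1 lower at P5, 67.9% called where 13.8% of all genes were, with a median of 0.62 (0.61 and 0.73 on the 2 P5 arrays; -0.21 under scale normalization). Agxt, the alanine-glyoxylate aminotransferase, had log2 values of -0.85, -1.30 and -1.1 at E18.5 and 1.38 and 0.91 at P5, a rise of 2.23 (SE 0.20, adjusted p = 4.14e-05). Mat1a, which makes S-adenosylmethionine in the mature liver, had -1.55, -1.62 and -1.41 at E18.5 and 0.62 and 0.23 at P5, a rise of 1.95 (adjusted p = 0.00017). With Tat these were among the 4 largest rises, and the stages did not overlap in any of them. Agxt was 2.23 lower at P56 (adjusted p = 4.46e-06). The lower gene was Csad, of taurine synthesis, by 0.75 (adjusted p = 0.0485), a call that was lost without any one of the 5 arrays (0.0691 to 0.22). The count of risen genes was 11 without P5 replicate 3 and 13 to 17 without any one of the others.

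In the urea cycle list 4 of 10 genes were higher at P5 and none lower (median 0.56; 0.57 and 0.53 on the 2 P5 arrays). They were Gls2, the liver glutaminase that releases ammonia (1.31, adjusted p = 0.00124), Slc25a15, the mitochondrial ornithine carrier (1.09, adjusted p = 0.000207), Otc, ornithine transcarbamylase (0.88, adjusted p = 0.008), and Nags, which makes the activator of Cps1 (0.62, adjusted p = 0.0064; another probe 0.30). Cps1 itself, the entry enzyme, had -0.45, -0.99 and -0.56 at E18.5 and -0.21 and -0.46 at P5, a difference of 0.33 that did not pass the test (adjusted p = 0.237), and its stages overlapped. The other probes of Otc gave -0.08 to 0.78. Otc (adjusted p = 0.0791) and Nags (0.0642) missed the threshold without P5 replicate 3.

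Bile acid synthesis and transport rose in part. Of 22 genes 10 were higher and 1 lower at P5 (median 0.48; -0.05 under scale normalization). Slco1b2, an uptake transporter of bile acids and drugs, had log2 values of -1.53, -2.12 and -1.44 at E18.5 and 0.60 and 0.73 at P5, a rise of 2.36 (SE 0.19, adjusted p = 1.78e-05). Abcg5, a subunit of the sterol exporter of the canalicular membrane, rose by 2.02 (adjusted p = 0.00017), Amacr, of side chain shortening, by 1.41 (adjusted p = 0.000878) and Baat, which conjugates bile acids, by 1.39 (adjusted p = 0.000711). The lower one was Cyp7a1, the rate-limiting enzyme of bile acid synthesis. It had -0.36, -0.59 and -0.40 at E18.5 and -1.73 and -0.83 at P5, so that both P5 arrays were below the E18.5 arrays by different amounts (difference -0.83, SE 0.21, adjusted p = 0.0235; another probe -0.39). Its call was lost without E18.5 replicate 1 (adjusted p = 0.0683), E18.5 replicate 3 (0.0728) or P5 replicate 2 (0.111). At P56 Cyp7a1 was 3.63 higher than at P5 (adjusted p = 1.34e-07).

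Among cytochromes P450 of families 1 to 3, 15 of 31 were higher and 3 lower at P5, 58.1% called where 13.8% of all genes were (median 0.69; 0.60 and 0.79 on the 2 P5 arrays; -0.78 under scale normalization). After Cyp3a25 the largest rises were Cyp2c37 (2.31, adjusted p = 0.00105), Cyp2e1 (1.99, adjusted p = 0.000566), which oxidises ethanol and ketones, and Cyp2b9 (1.87, adjusted p = 0.00532; another probe 1.18). Cyp2e1 had -3.14, -3.30 and -3.0 at E18.5 and -1.36 and -0.97 at P5, and the stages stood apart. Cyp3a16, the fetal and neonatal form, rose by 1.35 (adjusted p = 0.0112) and Cyp3a11, the main adult form, by 0.83 (adjusted p = 0.0378). The call on Cyp3a11 was lost without any one array (adjusted p 0.0616 to 0.14). The lower ones were Cyp2c40 (-0.88), Cyp2c70 (-0.67) and Cyp2c29 (-0.59), with adjusted p of 0.0456, 0.0318 and 0.0276, and at most 1 of them was called without any one array. Cyp2c40 missed the threshold without any one array (0.0845 to 0.177), Cyp2c29 without any but E18.5 replicate 2 (0.0602 to 0.0967) and Cyp2c70 without any but E18.5 replicate 1 (0.0841 to 0.102). Probes of these families may cross-hybridise.

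Of the conjugating enzymes 15 of 33 were higher and 3 lower at P5, 54.5% called where 13.8% of all genes were (median 0.42; 0.39 and 0.57 on the 2 P5 arrays; -0.58 under scale normalization). After Sult1c2 they were led by Sult1d1 (2.29, adjusted p = 0.00105), a sulfotransferase of small phenols, Nnmt (2.06, adjusted p = 0.000517), which methylates nicotinamide, and the glucuronosyltransferase Ugt2b1 (1.72, adjusted p = 0.00151). Of the 15 that rose 13 were higher still at P56 than at P5, where 20.9% of all genes were higher. Nnmt was higher by 4.88 (adjusted p = 8.02e-08). The 3 that fell were glutathione S-transferases, Gsta3 (-0.92, adjusted p = 0.00122), Gstt1 (-0.92, adjusted p = 0.00977) and Gsta1 (-0.71, adjusted p = 0.0339), and all 3 were higher at P56 than at P5. The count of risen genes was 9 without E18.5 replicate 2 and 10 without P5 replicate 3, and Gsta1 missed the threshold without E18.5 replicate 2 (adjusted p = 0.0837), E18.5 replicate 3 (0.114) or P5 replicate 2 (0.137).

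Plasma protein genes moved in both directions. Of 26 carriers and apolipoproteins 7 were higher and 3 lower at P5. Serpina7, which carries thyroxine, had log2 values of 0.19, -0.05 and -0.29 at E18.5 and 2.02 and 1.90 at P5, a rise of 2.01 (adjusted p = 0.000471). The apolipoproteins Apoa4 and Apoa5 rose by 1.93 and 1.60 (adjusted p = 0.000244 and 0.000237; another probe of Apoa5 0.98) and Pon1, an esterase carried on HDL, by 1.85 (adjusted p = 1.48e-05). Albumin (Alb1) had 0.56, 1.12 and 1.00 at E18.5 and -0.12 and -0.16 at P5, and was called lower at P5 (adjusted p = 0.00239). Transferrin (Trf) was called lower as well (adjusted p = 0.00108). Both were saturated on all 3 E18.5 arrays and on 1 P5 array, so both stage levels may be understated and no fold is given. Below, a bound is a difference of mean Cy5 levels, with 1 stage set at the limit of what the scanner measured there. Without a dye swap it is open to dye bias. The remaining one, Ambp, fell by 0.32 (adjusted p = 0.0479), a call lost without E18.5 replicate 1 (0.113), E18.5 replicate 2 (0.117), E18.5 replicate 3 (0.0803) or P5 replicate 3 (0.286).

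The 3 fibrinogen chains fell together. Fga had log2 values of -0.56, -0.24 and -0.22 at E18.5 and -2.23 and -2.21 at P5, a fall of 1.88 (SE 0.26, adjusted p = 0.000775). Fgg and Fgb were saturated on all 3 E18.5 arrays, and Fgb also on 1 P5 array, so that no fold is given for Fgb. Both chains were lower at P5, Fgg at least 1.83-fold (adjusted p = 0.000462 and 0.000595). With Serpinf2, the inhibitor of plasmin (-0.71, adjusted p = 0.0479, lost without E18.5 replicate 1, 2 or 3, at 0.119, 0.0998 and 0.103, or without P5 replicate 3, at 0.309), they were the 4 lower genes of 21 in the coagulation list. The vitamin K-dependent factors F9 and F7 were the 2 higher ones, by 0.73 and 0.72 (adjusted p = 0.00113 and 0.00206). Of the coagulation list 28.6% was called, where 13.8% of all genes were. In the complement list 6 of 21 genes were higher and 1 lower, 33.3% called (median 0.23; -0.89 under scale normalization). C4bp, an inhibitor of the cascade, rose by 1.16 (adjusted p = 0.00128), and C8b, a subunit of the membrane attack complex, fell by 1.68 (adjusted p = 0.00328). Without P5 replicate 3, 3 complement genes were called higher.

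Acute phase genes moved in both directions, with 5 of 25 higher and 3 lower, 32% called where 13.8% of all genes were (median 0.11; -0.95 under scale normalization). Hpxn (now Hpx), the heme-binding hemopexin, had log2 values of -2.69, -2.99 and -2.80 at E18.5 and -0.79 and -1.09 at P5, a rise of 1.89 (SE 0.14, adjusted p = 1.48e-05). Serpina3n and Serpina3m, protease inhibitors, rose by 1.57 and 0.95 (adjusted p = 8.11e-05 and 0.00849). Besides A2m, Lcn2, which sequesters bacterial iron carriers, fell by 0.68 (adjusted p = 0.0113). Hamp1 (now Hamp), the iron hormone hepcidin, had -1.20, -1.61 and -1.24 at E18.5 and -2.29 and -1.65 at P5, a difference of -0.62 that did not pass the test (adjusted p = 0.243). Without P5 replicate 2, 11 acute phase genes were called higher, and without P5 replicate 3, 3.

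Of 18 imprinted growth genes 9 were lower at P5 and none higher (median -0.61; -0.54 and -1.01 on the 2 P5 arrays; 0.37 under scale normalization). Rian, a maternally expressed noncoding RNA, had log2 values of 2.04, 2.15 and 2.50 at E18.5 and 0.84 and 0.17 at P5, a fall of 1.73 (SE 0.19, adjusted p = 0.000176). Its reference was well above background on 3 of the 5 arrays. Plagl1, a zinc finger factor, had 4.70, 4.48 and 4.39 at E18.5 and 3.84 and 1.92 at P5, a fall of 1.64 with the P5 arrays 1.92 apart (adjusted p = 0.0183; another probe -0.41). Dlk1, which marks hepatoblasts, fell by 1.63 (adjusted p = 0.000574; another probe -2.49) and Grb10, an inhibitor of growth factor receptors, by 1.56 (adjusted p = 0.00806; other probes -1.46 and -0.92). All 4 stayed above the adult reference at P5. The mean Cy5 level (log2) of Dlk1 was 13.7 at E18.5 and 10.2 at P5, a larger fall than that of its log ratio. Without E18.5 replicate 1, E18.5 replicate 2 or P5 replicate 3 the adjusted p of Plagl1 was 0.0578, 0.0506 and 0.0797. H19 had a difference of -0.42 that did not pass the test (adjusted p = 0.0779). Its imprinted neighbour Igf2, a fetal growth factor, had 4.46, 4.83 and 4.66 at E18.5 and 3.59 and 4.38 at P5, saturated on both P5 arrays, and was not called either (adjusted p = 0.0728), but it was past the threshold without P5 replicate 3 (adjusted p = 0.0159).

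In the oncofetal list 3 of 11 genes were lower and none higher, the RNA-binding protein Igf2bp1 (-0.97, adjusted p = 0.00134; other probes -0.86 and -0.21), the chromatin protein Hmga1 (-0.85, adjusted p = 0.00122) and Lin28b (-0.71, adjusted p = 0.0353), which blocks let-7. For Igf2bp1 and Lin28b the adult reference was well above background on 0 of the 5 arrays. Their mean Cy5 levels (log2) were 7.47 and 7.22 at E18.5 and 6.43 and 6.6 at P5. Lin28b missed the threshold without E18.5 replicate 1, 2 or 3 (0.0826, 0.0586 and 0.111) or P5 replicate 3 (0.349), and 6 genes of the list were lower without P5 replicate 2. Afp, alpha-fetoprotein, had log2 values of 7.11, 7.44 and 7.06 at E18.5 and 6.15 and 6.63 at P5, saturated on every one of the 5 arrays, and was not called (adjusted p = 0.0828). In the growth hormone and IGF list 3 of 17 genes were higher and 1 lower (median 0.08; -0.32 under scale normalization). After Igfbp2, Igf1 rose by 0.98 (adjusted p = 0.00115; other probes 0.63 and 0.73), to 2.54 below its P56 mean, and Igfbp7 by 0.95 (adjusted p = 0.000807). Igfbp3 fell by 0.63 (adjusted p = 0.00414), and another probe of it gave 0.26.

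Blood cell genes differed by lineage, and in these bulk samples fewer cells of a type and less RNA per cell cannot be told apart. Of 19 neutrophil and granule genes 10 were lower and none higher, 52.6% called where 13.8% of all genes were (median -0.74; -0.83 and -0.73 on the 2 P5 arrays; 0.30 under scale normalization). Mmp8, neutrophil collagenase, had log2 values of 3.15, 3.44 and 3.12 at E18.5 and 1.32 and 1.05 at P5, a fall of 2.05 (SE 0.14, adjusted p = 5.38e-06). Mmp9, lactoferrin (Ltf) and Retnlg fell by 1.33, 1.31 and 1.31. All 19 genes were above background on all 5 arrays, and the summed Cy5 level of the list was 130672 to 135698 intensity units at E18.5, 74572 on P5 replicate 2 and 124090 on P5 replicate 3. Of 14 B cell precursor genes 10 were lower and 1 higher, 78.6% called (median -0.69; -0.61 and -0.82 on the 2 P5 arrays). After Vpreb1 (3.75, 4.08 and 4.02 at E18.5 and 2.14 and 0.75 at P5) the largest falls were Vpreb3 (-1.68, adjusted p = 0.00114; another probe -1.0), Igll1 (-1.54, adjusted p = 5.39e-05), another part of the surrogate light chain, and the recombinase Rag1 (-1.04, adjusted p = 0.00808). For Igll1 and Rag1 the adult reference was well above background on 0 of the 5 arrays. Their mean Cy5 levels (log2) were 7.95 and 7.71 at E18.5 and 6.48 and 6.65 at P5, where Rag1 was above background on 1 array only. The higher one was Ms4a1, the mature B cell antigen CD20 (0.93, adjusted p = 0.0231; another probe 0.25), whose call was lost without E18.5 replicate 1 (0.0731), E18.5 replicate 2 (0.0586) or either P5 array (0.0531 and 0.0961). The summed level of the list was 5859 to 6920 units at E18.5 and 2991 and 2257 at P5. At P5 9 of its 14 genes were above background on both arrays, and at E18.5 all 14 were on all arrays. Genes were kept only if well above background throughout at least 1 stage, so these counts cannot test a loss of detection. The count of lower genes was 4 without P5 replicate 3, when Rag1 also missed the threshold (0.0671), and another probe of Igll1 gave 0.14.

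Erythroid genes and cell cycle genes differed mainly on P5 replicate 3. The erythroid list had medians of -0.05 and -0.74 on the 2 P5 arrays and the cell cycle list 0.02 and -0.64, and under scale normalization both medians were positive (1.87 and 1.64). Of 38 erythroid genes 5 were lower and 1 higher (15.8% called), and of 38 cell cycle genes 1 was lower (2.63%). Of all genes 13.8% were called in either direction and 6.42% were lower. Counted in either direction, the erythroid share was near that of all genes and the cell cycle share below it, while the erythroid calls were mostly falls. Without P5 replicate 2 these counts of lower genes were 22 and 21, and without P5 replicate 3 they were 1 and 0. The erythroid count was also 1 without E18.5 replicate 2 and 3 without E18.5 replicate 3. Hbb-b1 (now Hbb-bt), adult beta-globin, had log2 values of 4.39, 4.93 and 4.50 at E18.5 and 3.32 and 3.95 at P5, saturated on all 5 arrays (adjusted p = 0.0117, and 0.0589 without P5 replicate 2). Its near-identical paralogs may share the probe, and its other probes gave -0.89 to -0.18. Klf1, the erythroid master factor, fell by 0.57 (adjusted p = 0.0172, with 0.0575 without E18.5 replicate 2 and 0.187 without P5 replicate 3), and the higher one was Car1, carbonic anhydrase 1 (1.01, adjusted p = 0.000765). Alas2, the erythroid enzyme of heme synthesis, and Mki67, a proliferation marker, had differences of -0.44 and -0.47 that did not pass the test (adjusted p = 0.43 and 0.168). The lower cell cycle gene was the factor E2f1 (-0.84, adjusted p = 0.0201, with 0.0548, 0.066 and 0.151 without E18.5 replicate 1, E18.5 replicate 3 or P5 replicate 3). The summed level of the erythroid list was 303229 to 326891 units at E18.5, 253241 and 267880 at P5 and 36675 to 56663 at P56.

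Of 15 megakaryocyte and platelet genes 7 were lower (median -0.46; -0.31 and -0.75 on the 2 P5 arrays), but 1 without P5 replicate 3, 4 without E18.5 replicate 1 and 3 without E18.5 replicate 2. The platelet receptor Treml1 fell by 1.1 (adjusted p = 0.00226), and the platelet chemokine Cxcl7 (now Ppbp) by 0.95 (adjusted p = 0.013, and 0.146 without P5 replicate 3). T and NK cell genes differed mainly on P5 replicate 3, with medians of 0.14 and 0.92 on the 2 P5 arrays (-0.05 for the list under scale normalization). The 4 of 12 called higher were Gzma (1.56), Klrd1 (1.21), Ccl5 (0.95) and Gzmb (0.89), genes of cytotoxic cells, with adjusted p of 0.0107, 0.0048, 0.0159 and 0.0416. None of the 4 was called without P5 replicate 3 (0.12, 0.0578, 0.175 and 0.357), and 7 genes of the list were called without P5 replicate 2 and 2 without E18.5 replicate 1. Ccl5 and Gzmb were also lost without E18.5 replicate 1 (0.0529 and 0.123), and Gzmb without E18.5 replicate 2 or 3 (0.098 and 0.0565). The summed Cy5 level of the T and NK list was 2238 to 2615 units at E18.5 and 3374 and 6025 at P5. No gene of the mast cell list (9 genes) or of the skeletal muscle list (7 genes) was called by limma.

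Kupffer cell and macrophage genes were mostly not called, with 4 of 20 higher and none lower, 20% called where 13.8% of all genes were (median 0.02; -0.73 under scale normalization). Cd163, the scavenger receptor of hemoglobin, had log2 values of -1.97, -2.21 and -1.96 at E18.5 and -0.57 and -0.10 at P5, a rise of 1.71 (SE 0.18, adjusted p = 0.000141). Marco, a receptor for bacteria, rose by 1.27 (adjusted p = 0.00217) and Vsig4, a complement receptor of Kupffer cells, by 1.06 (adjusted p = 0.00886, and 0.0959 without P5 replicate 3). Of 22 endothelial genes 7 were higher, or 31.8% where 7.36% of all genes were, and none lower (median 0.28; 0.46 and 0.16 on the 2 P5 arrays). They were led by Clec4g of the sinusoids (1.14, adjusted p = 0.00173), Wnt2 (1.11, adjusted p = 0.00596), Ptprb (1.1, adjusted p = 0.00167) and Fcgr2b (0.83, adjusted p = 0.000636), a receptor of sinusoidal endothelium. Wnt2, a ligand for neighbouring hepatocytes, had -0.65, -0.51 and -0.56 at E18.5 and 0.47 and 0.61 at P5. Of 26 stellate and mesenchymal genes 4 were higher (15.4%), led by Rgs5 (1.41, adjusted p = 0.00243; another probe 0.65), and of 11 biliary genes 1 was higher and 2 were lower. The count of Kupffer genes was 2 without P5 replicate 3 and that of stellate genes 1 without P5 replicate 2 and 2 without any one E18.5 array. With 1 array left out, the higher biliary gene was called only without P5 replicate 2. The lower ones were not called without E18.5 replicate 2, E18.5 replicate 3 or P5 replicate 3. The part of changes in cell content in these results was not tested.

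Of 13 targets of Wnt signaling around the central vein 4 were called, all higher at P5 (30.8%, where 7.36% of all genes were higher), and 9 were not (median 0.71; 0.23 and 0.98 on the 2 P5 arrays). Without P5 replicate 2, 8 were called. Axin2, a direct target of the pathway, had log2 values of -1.11, -1.27 and -1.12 at E18.5 and -0.10 and 0.04 at P5, a rise of 1.14 (SE 0.18, adjusted p = 0.00176). The ammonium channel Rhbg had -2.02, -2.06 and -2.19 at E18.5 and -0.95 and -0.50 at P5, a rise of 1.36 (SE 0.20, adjusted p = 0.00116). Gulo, of vitamin C synthesis, rose by 1.00 (adjusted p = 0.000471), and Lect2 by 1.45 (adjusted p = 0.00599, and 0.0599 without P5 replicate 3). In the study's own list of Wnt signaling genes, taken from a pathway database, 1 of 57 genes was higher and 2 were lower at P5 (5.26% called, below the 13.8% of all genes). Those were Ppp2r5b, a phosphatase subunit (0.52, adjusted p = 0.00417), and the proteasome genes Psmd5 (-0.49, adjusted p = 0.0107, and 0.112 without P5 replicate 3) and Psme1 (-0.43, adjusted p = 0.0116). The counts of this list were 2 and 4 without P5 replicate 2, and 1 gene was lower without P5 replicate 3. Ctnnb1, beta-catenin, differed by -0.07 (adjusted p = 0.817).

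In the study's list of genes tied to RXR-alpha, the nuclear receptor that pairs with PPAR, LXR and FXR, 19 of 79 genes were higher and 8 lower at P5, where 7.36% and 6.42% of all genes were (median 0.11; -0.48 under scale normalization). The study chose both pathways from clusters of its mouse tumors and normal livers and then followed them across these developmental arrays, so neither list is independent evidence of a direction. After Pon1 its largest rises were Ces3 (now Ces1d), a carboxylesterase (1.38, adjusted p = 0.000641), Plcl2 (1.30, adjusted p = 1.48e-05) and the plasma protein Fetub (1.23, adjusted p = 0.00299), and its largest falls included Fasn, Hmgcs1 and Gsta3. Rxra itself had log2 values of -1.44, -1.13 and -1.22 at E18.5 and -1.07 and -1.22 at P5, a difference of 0.12 that did not pass the test (adjusted p = 0.544; another probe 0.52). Of 24 nuclear receptors 7 were higher and none lower, 29.2% called where 13.8% of all genes were (median 0.19; -0.07 under scale normalization). They were led by Rxrg (1.06, adjusted p = 0.00722), Pparg (0.96, adjusted p = 0.000585) and Nr1i3, the drug receptor CAR (0.88, adjusted p = 0.00614). Rxrg and Nr1i3 missed the threshold without P5 replicate 3 (0.0641 and 0.0666), when 2 receptors were called, and 4 were without E18.5 replicate 2. Of 21 liver transcription factors 3 were higher (14.3%; median 0.14; -0.35 under scale normalization), a count that was 0 without E18.5 replicate 2 and 1 without E18.5 replicate 1, E18.5 replicate 3 or P5 replicate 3.

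Of 23 interferon-stimulated genes 11 were lower and none higher, 47.8% called where 13.8% of all genes were (median -0.51; -0.61 and -0.43 on the 2 P5 arrays). Isg15, a ubiquitin-like protein, had log2 values of 0.94, 0.90 and 1.85 at E18.5 and -0.70 and -0.31 at P5, a fall of 1.73 (SE 0.24, adjusted p = 0.00074). The antiviral Rsad2 fell by 1.28 (adjusted p = 0.00622, and 0.0701 without P5 replicate 3) and the GTPases Irgm (now Irgm1) and Igtp by 0.94 and 0.88 (adjusted p = 0.00118 and 0.00348). With median centring of the arrays instead of loess, 3 of these genes were called. The count was 7 without E18.5 replicate 3 or without P5 replicate 3. Among 19 clock genes 3 were higher and 3 lower, with 5 higher without P5 replicate 2 and 1 lower without E18.5 replicate 2, E18.5 replicate 3 or P5 replicate 3. Nr1d2 (Rev-erb beta) rose by 1.24 (adjusted p = 0.000479) and Hlf by 0.64 (adjusted p = 0.00806), while Bhlhb2 (now Bhlhe40) fell by 0.96 (adjusted p = 0.00276), and the hour of sampling is not given in the sources used here. Of 59 genes of oxidative phosphorylation 4 were higher (6.78%, near the 7.36% of all genes) and none lower (median 0.27). Led by Cox6c (1.05, adjusted p = 0.025), they were 24 with median centring, 13 without P5 replicate 2, 1 without E18.5 replicate 2 or 3 and none without P5 replicate 3 (Cox6c 0.213; also 0.057, 0.0681 and 0.0741 without E18.5 replicate 1, 2 or 3). In the iron and metal list 1 of 21 genes was higher (2 without P5 replicate 2) and 2 were lower (1 without any array but E18.5 replicate 1), 14.3% called where 13.8% of all genes were. Trfr2 (now Tfr2), transferrin receptor 2, rose by 1.04 (adjusted p = 0.000807) and the zinc importer Slc39a4 fell by 1.34 (adjusted p = 0.00204). In the antigen presentation list 1 of 17 genes was lower and in the immediate early and heat shock list 1 of 17 was higher, each 5.88% of its list, the latter on no set of arrays without E18.5 replicate 1, 2 or 3 or P5 replicate 3.

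**Figure D5:**
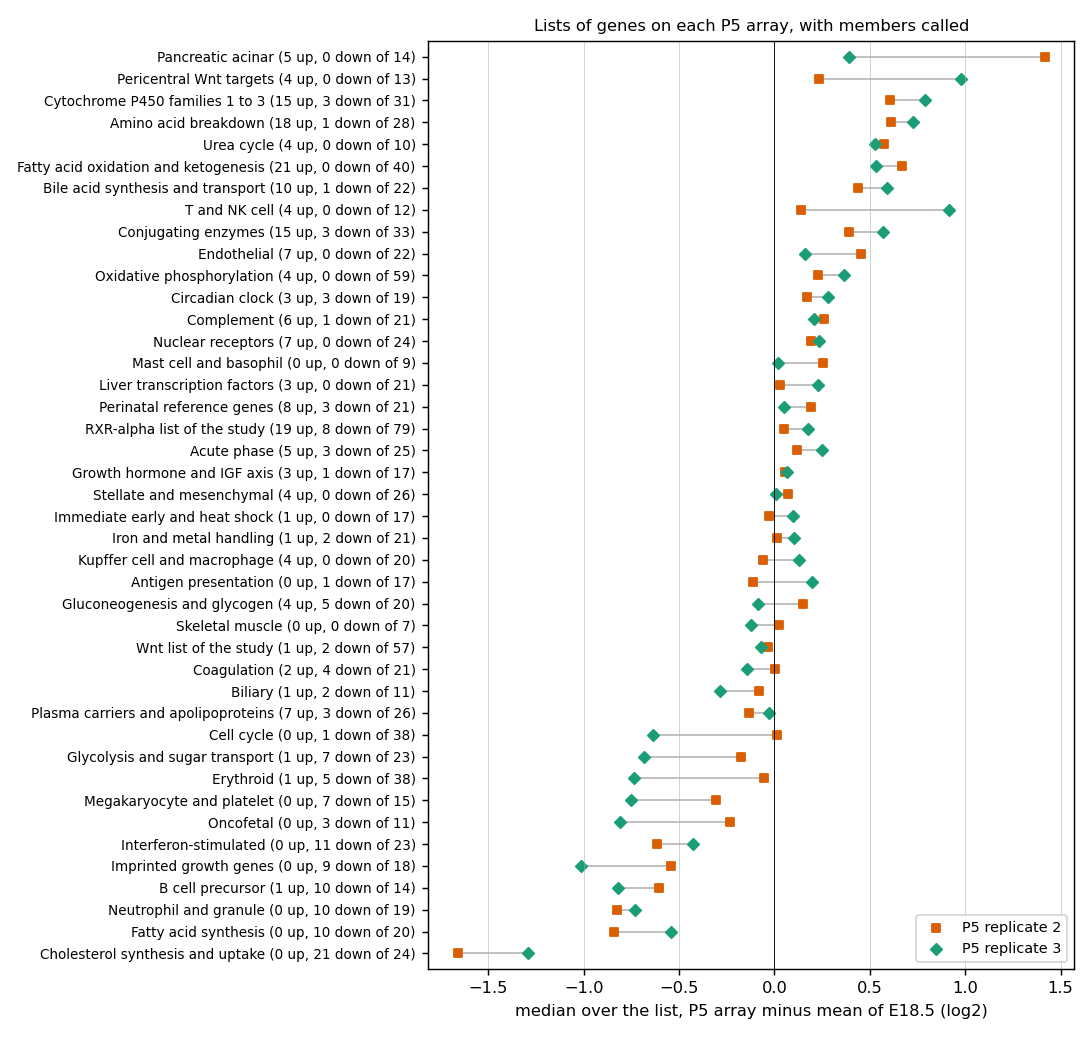
Median log2 difference from the E18.5 mean over the genes of each list on P5 replicate 2 (orange squares) and P5 replicate 3 (green diamonds), with the members called higher (up) and lower (down) of those measured. The 2 arrays lie close for cholesterol synthesis (-1.66 and -1.29) and amino acid breakdown (0.61 and 0.73) and far apart for erythroid (-0.05 and -0.74), cell cycle, T and NK cell and pancreatic acinar genes; 22 of the 43 lists tested (the pair of sex-linked genes is not plotted) took the opposite sign under scale normalization between arrays.

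Some genes were measured at 1 stage only. Of the called genes 11 were not well above background on any E18.5 array and 21 on no P5 array, which leaves at most a bound on the change. D630002G06Rik (now Slc22a29), an organic anion transporter-like gene, was at least 2.86-fold higher at P5 (adjusted p = 0.0366) and Slc17a1, a phosphate and urate transporter, at least 1.85-fold (adjusted p = 0.002). In the other direction 3830431G21Rik, 2810003K23Rik and Fgfbp1, which binds fibroblast growth factors, were called lower (adjusted p = 9.35e-05, 0.00123 and 0.00175). Their reference was well above background on at most 1 of the 5 arrays, and no fold is given, since the fall of their Cy5 level was larger than that of their log ratio. The call on D630002G06Rik was lost without any one of the 5 arrays (0.074 to 0.145). Among all called genes the 2 P5 arrays lay farthest apart for Reg1, Plagl1, Fabp5, Krt20 and 9430076G02Rik. Fabp5, a fatty acid-binding protein, had log2 values of 3.49, 3.54 and 3.76 at E18.5 and 2.72 and 1.06 at P5 (1.66 apart at P5; adjusted p = 0.0116, and 0.079 without P5 replicate 3). Krt20 had 4.72, 4.08 and 4.33 at E18.5 and 2.68 and 1.02 at P5, and 9430076G02Rik had 4.33, 3.88 and 4.29 at E18.5 and 3.55 and 1.97 at P5 (adjusted p = 0.022; 0.0668, 0.0727 and 0.0806 without E18.5 replicate 1, E18.5 replicate 3 or P5 replicate 3). In these genes the size of the change differed between the P5 arrays and its direction did not.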

How the data were processed

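Liver RNA of 11 normal samples was hybridised in Cy5 against adult liver reference RNA in Cy3 on Agilent arrays, with no dye swap, and the deposited intensity values of both channels are per the file headers those of Feature Extraction 9.5.1.1, not normalized. The authors' own table holds lowess-normalized log2 ratios with probes averaged per gene and was used as an alternative, while the scanner's log10 ratios, deposited in the same files, were not used. Direction was taken from the dyes in the labels. The extracted RNA was amplified before labeling, which can compress or distort differences.

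Spot signals were background-corrected (normexp, offset 50) and loess-normalized within arrays with limma 3.58.1 in R 4.3.3. Control spots (1639 per array) and outlier spots were left out. Kept were probes whose Cy5 signal was well above background throughout at least 1 stage and which missed no more than 1 array of any stage. The brightest probe stood for a gene, and unnamed probes were left out. Names are those of the array design. Of the 16560 genes 11733 had a RefSeq name by accession, 2655 of them another symbol than on the array, and 47 lacked a value on 1 of the 5 arrays, where the fit used the rest. The number of arrays limits the precision.

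All 11 arrays were fitted with stage as the only term, and the contrast P5 minus E18.5 was tested with lmFit and eBayes (two-sided, Benjamini-Hochberg over all genes, threshold 0.05). The contrast P56 minus P5 of the same fit was added after results had been seen. The p-values measure the spread between these arrays. The stages and gene lists were chosen with earlier results of these data known. Named were the 15 largest rises and falls among called genes measured on all 5 arrays with both P5 arrays beyond the E18.5 range, up to 4 called genes in each direction per list, a set of perinatal reference genes, up to 5 genes in each direction with only a bound, and the 5 called genes whose P5 arrays lay farthest apart. Some genes that this rule names are not reported here. The text gives the others of each list from the largest down, and any other gene is marked as chosen after its values were seen or is a marker or a member of the cholesterol list shown for its sequence. Replicate numbers were not used to pair the arrays. Alternatives covered background, normalization, filters, probe choice, the test, blocks and leaving out each array.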

Additional observations from a re-analysis of the deposited data

How the results depend on the processing

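The direction of the cholesterol, fatty acid synthesis, fatty acid oxidation, urea cycle, glycolysis, B cell precursor, megakaryocyte, endothelial, interferon, oxidative phosphorylation, pericentral and oncofetal lists, read as the sign of the list's median, was kept under every alternative run. The number of genes called depended on the setting. Genes lower at P5 were 550 with median centring, 654 with the scanner's processed signals and 664 with the E18.5 and P5 arrays alone, and the share of higher genes among the called ones was then 62.4%, 59.9% and 59.1%. Scale normalization between arrays gave 200 higher and 177 lower, the log ratios of the authors gave 213 and 79, array weights 811 and 618 (both P5 arrays at a weight of 0.443), limma's treat test with a minimum log2 difference of 1 gave 35 and 24, and the methods' t-test on the 5 arrays gave 1817 and 1624 unadjusted and 39 and 21 after Benjamini-Hochberg adjustment. Leaving out 1 array gave 583 to 1842 higher and 345 to 1904 lower genes, the lowest without P5 replicate 3 and the highest without P5 replicate 2. With scan as a random block (correlation 0.184) 924 genes were higher and 757 lower.

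With the replicate number as a block 955 genes were higher and 774 lower. Same-numbered arrays deviated from their stage means with correlations of -0.306 and 0.00667 across genes. The deviations of the 2 P5 arrays from their own mean mirror each other by construction, so these values cannot decide whether the numbers pair the arrays. The main fit did not pair them.

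Under scale normalization the sign turned for the called genes 1810049H19Rik (-0.89), 9430076G02Rik (0.77), Apoa5 (-0.034), C4bp (-2.26), Ccl5 (-0.79), Ces3 (-0.13), Csad (0.26), Cxcl7 (0.047), Cyp2b9 (-0.47), Cyp3a11 (-1.35), Cyp3a16 (-0.67), Dlk1 (1.08), F7 (-0.079), F9 (-0.051), Fgf21 (-0.67), Fibp (2.00), Grb10 (2.33), Gulo (-0.38), Hbb-b1 (3.09), Hlf (-0.17), Igf1 (-1.80), Igfbp7 (-0.076), Klf1 (1.48), Ltf (1.07), Nags (-0.59), Otc (-0.15), Plagl1 (0.52), Prss2 (-1.07), Retnlg (0.32), Rnase1 (-0.42), Rsad2 (0.87), Rxrg (-0.51) and Serpina3m (-0.47), and for Afp (5.88), Alas2 (1.82), Cps1 (-0.16), H19 (3.02), Hnf4a (-0.60), Igf2 (3.78), Mki67 (3.29) and Rxra (-1.10), which were not called. Median centring turned Ambp (0.14), Ctnnb1 (0.057) and Ttr (0.054). Cy5 alone turned Igf2 (0.088), the scanner's processed signals Igll1 (0.30), the authors' table Igfbp3 (0.18) and leaving out P5 replicate 3 Ctnnb1 (0.024), and leaving out 1 array gave Mvk -0.535 (without P5 replicate 3) to 0.067 (without P5 replicate 2). The cause was not tested for any of these changes.

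With 2 P5 arrays, scanned apart from each other and from the E18.5 arrays, stage, scan and preparation cannot be told apart. Bright genes such as Afp, Hbb-b1, Alb1 and Trf were saturated, and dim ones give only a bound. Of 835 called genes with several probes 141 had a probe of the opposite sign.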
